A study of Mus musculus with 15 samples.

Results

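The genotype by treatment interaction asks, for each gene, whether the colon of Irf1-/- mutants answered AOM/DSS in the same way and to the same extent as the colon of B6 mice. It was formed from the 4 groups of 3 libraries that make up the contrast (Irf1-/- D26 minus untreated Irf1-/-) minus (B6 D26 minus untreated B6), which is 12 of the 15 libraries of the series. The untreated B6 mice of the contrast are named control set 1 here. The 3 remaining libraries are a further set of untreated B6 mice, called control set 2, and each result was computed again with them in the place of set 1. All genes present in the tables of both genotypes were tested, 12483 in all, of which 12370 could be followed with control set 2. A positive interaction means that the treatment moved a gene up more, or down less, in mutants than in B6 mice.

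The animals were C57BL/6 (B6, C57BL/6J in the study's methods) mice and Irf1-/- mutants on the B6 background, which lack a functional Irf1 gene in every cell from birth. Per the study's methods, mice entered the colitis-associated cancer model at 8 to 10 weeks of age. Treated mice of both genotypes received azoxymethane (AOM), an alkylating carcinogen, at 7 mg/kg on D1, drank 2% dextran sulfate sodium (DSS), which injures the colonic epithelium, from D8 to D11, and were sacrificed on D26. Untreated mice of either genotype received neither agent. RNA came from homogenized distal colon, so a lower value can reflect fewer cells of a type or less RNA per cell, which cannot be told apart here. The labels do not say that the 3 mice of a group came from separate cages or litters, and p-values measure the spread between these mice.

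Interferon regulatory factor 1 (IRF1) is a transcription factor that interferon gamma induces. It binds promoters with repeats of the letters GAAA and is best known for driving antigen processing and MHC class I genes, guanylate binding proteins and antiviral genes. In the colon such genes are expressed by epithelial and immune cells and answer to injury and inflammation.

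Libraries held between 22266607 and 22869853 reads on genes, and levels are given as CPM, the counts scaled to the library total. Smooth muscle contractile genes summed to between 15691 and 19586 CPM and colon epithelial identity genes to between 11045 and 14004 CPM over the 15 libraries. Slopes on the GC content of genes were taken relative to the mean of each gene over the 15 libraries, so a rise in some goes with a fall in others. Relative levels in the 3 treated B6 libraries rose by 0.136 to 0.285 log2 units per 10% GC, whereas the slope in the other 12 libraries lay between -0.124 and 0.0316. Within B6 mice this slope and the treatment cannot be told apart. Levels of Xist, the RNA that coats the inactive X chromosome in female cells, ranged from 5.88 to 3774 CPM, and the labels do not give the sex of the mice. The treated B6 mice 1 and 2 (25.15 and 5.883 CPM) and the treated mutant 1 (11.72 CPM) were low, and the other 12 libraries were at 321.7 CPM or more. With log2 Xist as a covariate the interaction calls were 2 higher and 0 lower, and those in B6 mice 27 up and 115 down. The part of GC content or sex in the results below was tested only by the alternatives named beside them.

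As a check of the labels, Irf1 itself was read in every library. It stood at 162, 155 and 145 CPM in control set 1, and at 173, 220.2 and 228 CPM in treated B6 mice. Untreated mutants held 79.3, 117 and 88.0 CPM, treated mutants 109.6, 123 and 99.6 CPM, and control set 2 140.3, 129.6 and 128 CPM. Every mutant library was below every B6 library, although reads were still counted on the gene in mutants, and counts per gene do not show which exons they came from. The treatment response of Irf1 was 0.44 log2 in B6 mice (edgeR adjusted p = 0.0455) and 0.22 log2 in mutants (adjusted p = 0.479), an interaction of -0.22 (95% interval -0.64 to 0.21).

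More genes passed the threshold after treatment in B6 mice than in mutants, and few genes differed between the responses when the difference itself was tested. A gene was called at a fold change (FC) of at least 1.5 and a Benjamini-Hochberg adjusted p under 0.01 in edgeR's quasi-likelihood test. In B6 mice 97 genes were upregulated (0.777% of the genes tested) and 154 downregulated (1.23%) at D26, together 2.01%. In mutants 5 were upregulated (0.0401%) and 2 downregulated (0.016%), together 0.0561%. After a correction for GC content the calls were 13 in B6 mice and 7 in mutants, and with the replicate block added to that correction 0 and 8. For the interaction 2 genes were called, 0.016% of 12483, Akap5 and Lrrc17, both with a higher response in mutants. None was called with a lower response. At an unadjusted p under 0.05 the response was lower in 903 genes (7.23%) and higher in 1205 (9.65%), together 16.9%. Spearman correlations with the GC content of genes were -0.51 for the interaction, 0.61 for the B6 response and 0.15 for the mutant response. After the GC correction 1398 genes (11.3%) had an unadjusted interaction p under 0.05, 739 lower (5.97%) and 659 higher (5.32%). The 4 further genes that passed an adjusted p of 0.05 were OTTMUSG00000016609, Klk1b11, Klk1b4 and Klk1b5, so that 6 genes, 0.0481%, passed that limit. With control set 2 no gene passed either limit, the smallest adjusted p being 0.0668. There 1854 genes (15%) had an unadjusted p under 0.05, 9.04% of all genes with a higher and 5.95% with a lower response. With set 2 and the GC correction 882 of 12272 genes had an unadjusted p under 0.05. DESeq2's Wald test on the same counts called 49 genes with a higher and 26 with a lower response in mutants, 0.601% of the genes.

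**Figure D1:**
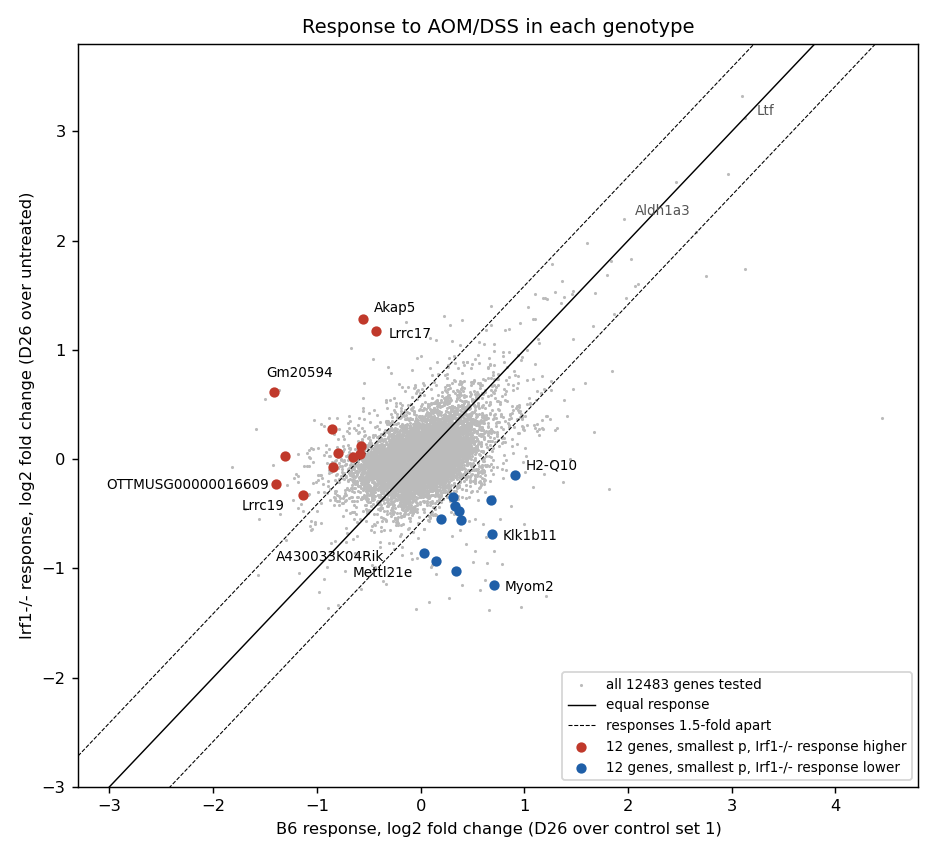
The response of each of the 12483 genes (grey points) in B6 mice (x axis, log2 FC of D26 over control set 1) is plotted against its response in Irf1-/- mutants (y axis, log2 FC of D26 over untreated). Red and blue points are the 12 genes in each direction with the smallest interaction p among those with responses at least 1.5-fold apart, and Akap5 and Lrrc17 are below 0 in B6 mice and the highest of the red points in mutants, whereas Ltf and Aldh1a3 lie near the line of equal response.

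The plot of responses sets both genotypes side by side. Of the 251 genes called in B6 mice, 207 had the same sign in mutants and 206 stayed within 1.5-fold there. The same shares over all genes are not given here, so these counts do not set the 251 apart from other genes. The 97 upregulated genes had a median response of 0.91 log2 in B6 mice and 0.38 in mutants, and the 154 downregulated genes of -0.76 and -0.12. These genes were chosen by their B6 response against set 1, so the larger B6 medians are a description. Against set 2 the B6 medians were 0.62 and -0.68. None of the 251 was called for the interaction by edgeR's quasi-likelihood test at an adjusted p under 0.01, whereas DESeq2 gave 41 genes and the likelihood ratio test 44 as changed in B6 mice alone, counted over their own calls. Of the 243 that could be followed, 123 were called in B6 mice with control set 2, which called 3.52% of all genes. This overlap is a description too, since the same treated B6 libraries enter with either set. Downregulated genes had a median GC content of 39.2% and upregulated genes of 53.3%, beside 49.6% over all genes. After a correction for GC content, a refit of the same libraries, 11 of the 251 remained called in B6 mice, where 0.105% of all genes were. The interaction calls after that correction were again 2 higher and 0 lower, 0.0162% of the genes.

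Genes with opposite directions were sought by the ranges of the libraries as well. All treated B6 libraries lay above all of control set 1, and all treated mutants below all untreated mutants, in 89 genes, 0.713% of those tested. The reverse held in 98 genes, 0.785%. Treated and untreated libraries did not overlap in 35% of all genes in B6 mice and in 25% in mutants, so each pattern needs the test of the interaction beside it. By that test at an adjusted p under 0.05, 1 gene responded past the threshold in B6 mice alone (OTTMUSG00000016609), 2 in mutants alone (Akap5 and Lrrc17) and 1 in opposite directions (Klk1b11). With the replicate block at that limit these counts were 0, 2 and 0. With single mice left out the edgeR adjusted p reached 0.129 for OTTMUSG00000016609 and 0.100005 for Klk1b11.

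Akap5, a scaffold that anchors protein kinase A and calcineurin near the membrane, had the largest departure by p. It was at 26.2, 25.3 and 27.8 CPM in control set 1, and at 16.8, 17.8 and 19.0 CPM in treated B6 mice. It was at 9.28, 9.59 and 11.4 CPM in untreated mutants and at 21.0, 28.05 and 24.6 CPM in treated ones. Within each genotype the treated and untreated libraries did not overlap, and they moved in opposite directions. The response was -0.56 log2 in B6 mice (edgeR adjusted p = 0.00889), just under 1.5-fold, and 1.28 in mutants (adjusted p = 0.000993). The interaction was 1.83 ± 0.17 (SE, edgeR adjusted p = 0.000675). In control set 2, however, Akap5 stood at 9.28, 8.99 and 7.14 CPM, the level of the untreated mutants and below every treated B6 library. Against set 2 the B6 response was 1.08 log2 (adjusted p = 0.000685), upward as in the mutants, and the interaction was 0.20 (95% interval -0.21 to 0.62, edgeR adjusted p = 0.65). The downward response in B6 mice was seen against set 1 and not against set 2. After the GC correction with set 1 the interaction was 1.70, and it was 1.61 for Lrrc17.

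Lrrc17, a secreted leucine-rich repeat protein known as a restraint on osteoclast formation, had the same pattern. Control set 1 held 31.9, 29.9 and 35.7 CPM, treated B6 mice 23.4, 21.1 and 27.5, untreated mutants 10.8, 11.4995 and 15.03, and treated mutants 25.8, 30.2 and 28.3. Treated mutants were all above untreated mutants, and treated B6 mice all below control set 1. The response was -0.43 in B6 mice (edgeR adjusted p = 0.0388) and 1.17 in mutants (adjusted p = 0.00258), with an interaction of 1.60 ± 0.19 (SE, adjusted p = 0.00611). Control set 2 held 12.8, 14.8 and 10.6 CPM, below all treated B6 libraries, which turned the B6 response to 0.91 (adjusted p = 0.00183) and left an interaction of 0.26 (95% interval -0.18 to 0.71). With each of the 12 mice left out in turn, Akap5 was called in 12 of the 12 fits and Lrrc17 in 3, those without the treated B6 mouse 2 or 3 or the untreated mutant 3, and its edgeR adjusted p was at most 0.0415 over the 12 fits. The number of genes called with a higher response in these fits was 1 to 9, and it was 9 without the treated B6 mouse 2, when OTTMUSG00000016609, Zfp932, Ogn, Ppig, Arid4b, Usp14 and Filip1l were called too.

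Sequence before the start of both genes is shown because these are the genes that passed the threshold, from RefSeq on GRCm38.p6. The Akap5 stretch ends just before the start, and the Lrrc17 stretch, placed around a match, runs from 163 to 84 bases before it. Capitals in Lrrc17 mark a match to TTCNNNGAA, the palindrome that Stat factors bind, and no capitals in Akap5 mean that neither this nor the interferon regulatory factor element (GAAA, any 2 bases, GAAA) was in its promoter window on either strand. The printed stretches lie at chr12:76324811-76324890 (plus strand) for Akap5 and chr5:21543364-21543443 (plus strand) for Lrrc17.
Akap5: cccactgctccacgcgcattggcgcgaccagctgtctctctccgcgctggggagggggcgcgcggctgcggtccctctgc
Lrrc17: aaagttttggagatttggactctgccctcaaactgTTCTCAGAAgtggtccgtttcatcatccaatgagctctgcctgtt
The promoter windows ran from 250 bases before to 50 after each start. The interferon regulatory factor element was found in 3.44% of 32851 such windows and TTCNNNGAA in 8.3%. Counted by gene, with any window of a gene, these shares were 3.99% and 9.55% of 27025 genes. Among the 24 genes with the smallest interaction p, 20 had a window. Of these 20 genes 0 held the interferon regulatory factor element and 2, Lrrc17 and Pdcd4, held TTCNNNGAA.

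The 10 further genes with a higher response in mutants had B6 responses between -1.41 and -0.58 log2 with set 1, and mutant responses between -0.33 (Lrrc19) and 0.62 (Gm20594), none of them called in mutants. OTTMUSG00000016609, a gene model without a name in the files, was at 61.5, 60.3 and 72.5 CPM in control set 1, and at 22.6, 28.8 and 21.6 CPM in treated B6 mice. Untreated mutants held 59.8, 62.1 and 65.0 CPM and treated mutants 58.6, 56.2 and 45.2. The 3 treated B6 libraries stood apart from all other groups, control set 2 included (69.8, 63.2 and 49.0 CPM). The gene was downregulated by 1.40 log2 in B6 mice (edgeR adjusted p = 0.000241), against -0.23 (95% interval -0.49 to 0.03) in mutants, an interaction of 1.17 (95% interval 0.80 to 1.54, adjusted p = 0.0352). With control set 2 it was 1.09 (0.67 to 1.504, edgeR adjusted p = 0.0862). No GC content was at hand for this gene model.

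Lrrc19, a leucine-rich repeat membrane receptor of kidney and intestinal epithelium, behaved alike. It was at 81.3, 90.2 and 85.9 CPM in control set 1, at 38.1, 42.6 and 35.3 in treated B6 mice, at 82.5, 92.8 and 80.8 in untreated mutants and at 64.9, 64.1 and 75.4 in treated ones. Treated libraries were lower in both genotypes without overlap, by more in B6 mice. The response was -1.14 log2 in B6 mice (edgeR adjusted p = 0.000241) and -0.33 in mutants (adjusted p = 0.0875), an interaction of 0.81 (adjusted p = 0.0603). With control set 2 (88.2, 87.0 and 73.2 CPM) it was 0.77 (95% interval 0.46 to 1.07), and after the GC correction with set 1 it was 0.42.

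Cul4b, the scaffold of a family of ubiquitin ligases, was at 50.4, 43.8 and 49.3 CPM in control set 1 and 29.4, 34.2 and 31.9 CPM after treatment of B6 mice, and at 43.2, 44.6 and 47.1 in untreated mutants and 51.8, 52.1 and 43.2 in treated ones. Treated B6 mice were below all other groups, control set 2 included (45.5, 47.6 and 43.2 CPM), and the mutant groups overlapped. Its interaction was 0.69 with set 1 (edgeR adjusted p = 0.0681), 0.63 with set 2 (adjusted p = 0.0908) and 0.48 after the GC correction. Zfp808, a zinc finger protein, was at 14.8, 13.1 and 20.7 CPM in control set 1, and at 6.14, 6.72 and 6.63 in treated B6 mice. In mutants it was at 12.9, 13.5 and 15.6 CPM before and 14.98, 16.4 and 11.51 after treatment, again with overlap. The interaction of Zfp808 was 1.33 with set 1 (edgeR adjusted p = 0.0704), 0.98 with set 2 and 0.95 after the GC correction. The gene model 9830147E19Rik gave 0.77 and 0.62 with the control sets in the same order, and Mbtd1, a subunit of a histone acetyltransferase complex, gave 0.63 and 0.44. After the GC correction with set 1 these were 0.46 and 0.39, and with set 2 and the correction 0.27 and 0.17.

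In the remaining genes of this group the value with control set 2 was smaller. Pdcd4, an inhibitor of translation initiation, was at 216, 215 and 218 CPM in control set 1, and at 148, 115 and 149 CPM in treated B6 mice, with untreated mutants at 163, 157 and 167 CPM and treated mutants at 159.6, 169 and 166 CPM. The mutant libraries overlapped and lay between the B6 groups. Control set 2, at 161, 155 and 151 CPM, was at the level of the mutants, and the interaction of Pdcd4 went from 0.67 to 0.21. Ankrd12, an ankyrin repeat protein that binds nuclear receptor coactivators, went from 0.85 to 0.42, and Gm20594 from 2.03 to 0.79. Mt1, a metallothionein that binds zinc and copper, was at 102, 104 and 70.2 CPM in control set 1, 53.5, 42.4 and 55.6 in treated B6 mice, 101, 101 and 98.8 in untreated mutants and 134, 107 and 124 in treated mutants. Treated B6 libraries were below set 1 and treated mutants above untreated ones without overlap, but control set 2 spread from 31.4 to 108 CPM, and the interaction of 1.13 with set 1 was 0.71 with set 2 (edgeR adjusted p = 0.451).

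**Figure D2:**
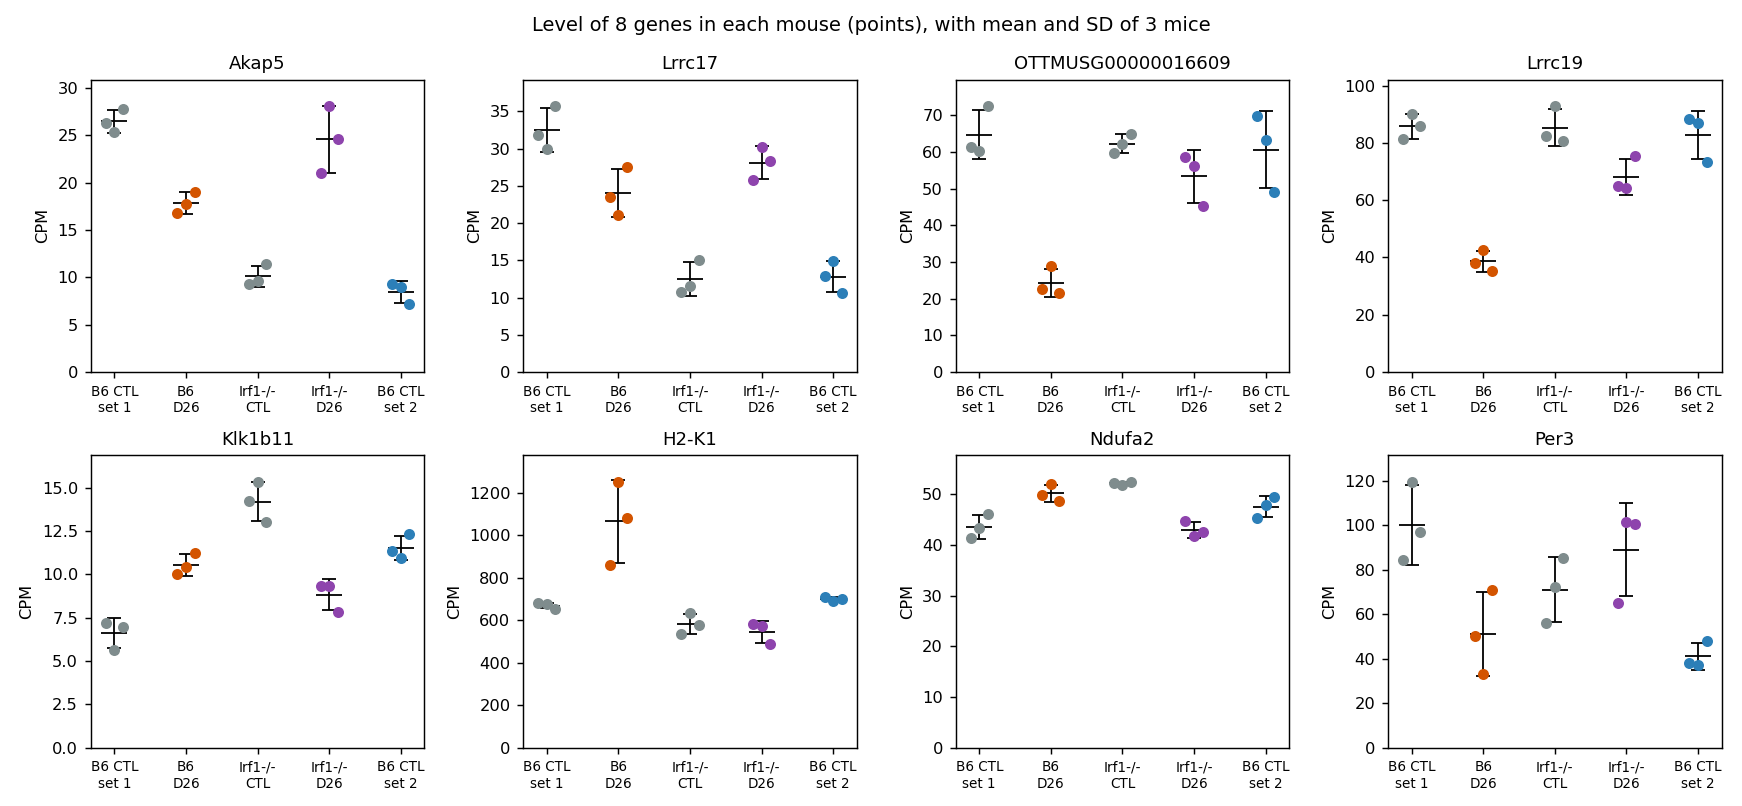
CPM of 8 genes in each mouse (points) of 5 groups of 3 mice, with the mean and SD as bars. Akap5 and Lrrc17 differ between the B6 control sets as much as between treated and untreated mutants, whereas OTTMUSG00000016609, Lrrc19 and H2-K1 have control sets near one another and treated B6 mice apart from both.

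As the plot of levels in each mouse shows, how far an interaction changed between the control sets depended on where control set 2 lay. This leaves the GC slope of treated B6 libraries aside, and the interactions of Lrrc19 and Cul4b were smaller after the GC correction with set 1. All 24 genes with the smallest interaction p, 12 in each direction, kept their sign with set 2. Of these 24, 10 kept a ratio of at least 1.5, and 15 had an unadjusted p under 0.05 by edgeR, beside 15% of all genes with set 2. In 12 the value with set 2 lay within the 95% interval obtained with set 1. The median over the 12 with a higher response in mutants went from 0.99 to 0.63, and over the 12 with a lower response from -0.996 to -0.43. The sign and these counts are weak criteria, since both computations share 9 of their 12 libraries. The genes were chosen by their values with set 1, so the smaller medians with set 2 are a description. DESeq2 called 41 genes as changed in B6 mice alone, of which 30 kept a ratio of 1.5 with control set 2. The same treated B6 libraries, which carry the GC slope, enter with either set. That count is therefore no separate test of the changes in B6 mice, and the 41 genes were not followed after the GC correction. DESeq2 called 8 in mutants alone, of which 1 kept that ratio, and 5 in opposite directions, of which 4 kept it. These 5 were Gm20594, Acta1, Klk1b11, Myom2 and Myl1. The ratio does not carry the directions. Mean CPM in treated B6 mice and control set 2 was 27.7 and 31.2, 129 and 113, 10.5 and 11.5, 7.71 and 7.75, and 8.44 and 9.22, in that order. Each pair was under 1.5-fold apart, so opposite responses past 1.5-fold were seen with set 1 and not with set 2.

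**Figure D3:**
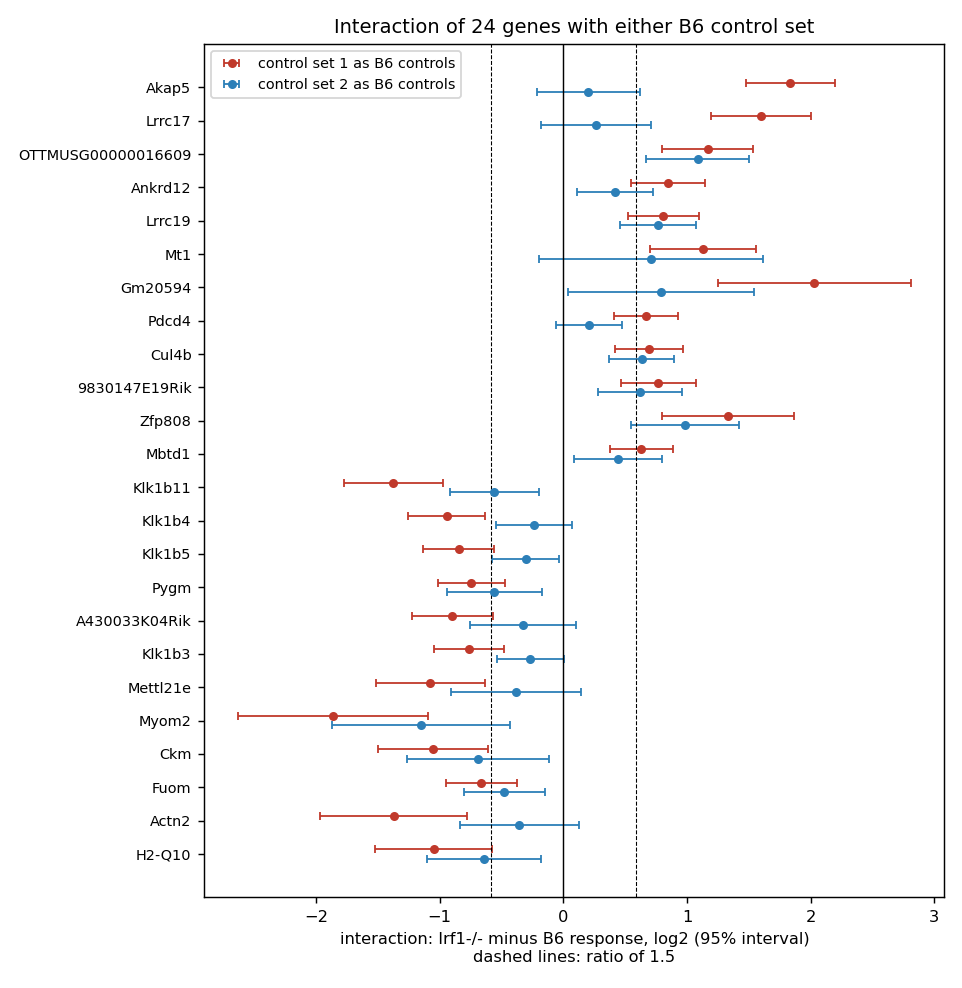
Interaction (log2, x axis) with its 95% interval for the 24 genes named by the smallest p in each direction, with control set 1 (red) or control set 2 (blue) as the B6 controls. Akap5 drops from 1.83 to 0.20 and Lrrc17 from 1.60 to 0.26, whereas OTTMUSG00000016609, Lrrc19 and Cul4b keep nearly the same value. All values are without the GC correction.

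The 7 genes called in treated mutants were read next, since a response of mutants alone would have to be among them. Ltf, the iron-binding lactoferrin, was at 10.7, 20.2 and 16.4 CPM in control set 1, and at 110.5, 198 and 102 CPM in treated B6 mice, and at 20.9, 7.90 and 13.7 CPM in untreated and 74.9, 137 and 158 CPM in treated mutants. Both genotypes moved without overlap, by 3.13 and 3.12 log2, and the interaction with set 1 was -0.01 ± 0.52 (SE). Against set 2 the B6 response of Ltf was 3.95 and the interaction -0.83 (edgeR unadjusted p = 0.147). An equal size of response was therefore not established for Ltf. Aldh1a3, a retinoic acid synthesizing enzyme, was upregulated by 1.96 log2 in B6 mice and 2.20 in mutants. Its interaction was 0.24 ± 0.33 (SE) with set 1. Against set 2 its B6 response was 1.66 and its interaction 0.54 (edgeR unadjusted p = 0.135). These genes were named after their values were seen, as were Ifitm3 and Trim43b.

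Ifitm3, an interferon-induced membrane protein that blocks virus entry, was at 33.7, 36.1 and 33.3 CPM in control set 1, and at 37.7, 50.5 and 47.7 CPM in treated B6 mice, against 18.7, 19.98 and 22.2 CPM in untreated and 39.7, 35.2 and 38.5 CPM in treated mutants. Untreated mutants were the lowest group, and treated mutants overlapped with treated B6 mice. The response was 0.41 in B6 mice and 0.89 in mutants (interaction 0.48, edgeR adjusted p = 0.153), but control set 2 held 24.5, 26.2 and 23.6 CPM, with which the B6 response was 0.87 and the interaction 0.02. Trim43b likewise went from an interaction of -0.50 with set 1 to 0.10 with set 2. The gene model A430033K04Rik was at 147, 147 and 149.7 CPM in untreated mutants and at 74.4, 96.5 and 73.5 in treated ones, and at 105, 87.5 and 92.1 CPM in control set 1 and 106, 93.2 and 88.8 in treated B6 mice. It was downregulated by 0.86 log2 in mutants (edgeR adjusted p = 0.00386) with no separation in B6 mice. Control set 2 held 172, 116 and 129.6 CPM, which gave a B6 response of -0.54 and an interaction of -0.33 in place of -0.90.

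Glandular kallikreins, serine proteases encoded by a cluster of near-identical genes, made up 4 of the 12 genes with a lower response in mutants. Klk1b11 was at 7.21, 5.65 and 6.97 CPM in control set 1, and at 10.01, 10.4 and 11.2 in treated B6 mice, and went from 14.2, 15.3 and 13.04 CPM in untreated to 9.32, 9.35 and 7.82 in treated mutants. Neither genotype overlapped between treatments, and they moved in opposite directions. The response was 0.69 in B6 mice (edgeR adjusted p = 0.00623) and -0.69 in mutants (adjusted p = 0.0247), an interaction of -1.37 ± 0.18 (SE, adjusted p = 0.0198). Control set 2 was at 11.3, 10.9 and 12.3 CPM, so the B6 response against it was -0.13 (adjusted p = 0.446), the opposite direction was lost, and the interaction was -0.56 (95% interval -0.92 to -0.20).

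All 9 kallikrein genes tested had a negative interaction with an unadjusted p under 0.05 by edgeR, where 7.23% of all genes did. Klk1b4 gave -0.94 with control set 1 and -0.24 with set 2, Klk1b5 -0.85 and -0.30, Klk1b3 -0.76 and -0.27, and Klk1, which has the highest level of the family, -0.61 and -0.27. The median over the 9 was -0.76 with set 1 and -0.24 with set 2, beside 0.01 over all genes with either set. The median response in B6 mice was 0.35 against set 1 and -0.16 against set 2, and in mutants it was -0.42. Reads of 50 bases can be shared between these copies, and the counting may have split them, so the members are not separate measurements. The 100 bases before the start of the 3 members with the smallest interaction p are printed to show how alike the genes are. They lie on GRCm38.p6 at chr7:43995777-43995876 for Klk1b11, chr7:44207333-44207432 for Klk1b4 and chr7:44216374-44216473 for Klk1b5, all on the plus strand. Capitals mark runs of 10 or more bases found in all 3 printed stretches.
Klk1b11: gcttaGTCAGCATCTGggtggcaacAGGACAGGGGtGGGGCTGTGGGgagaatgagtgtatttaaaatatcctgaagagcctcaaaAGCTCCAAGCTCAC
Klk1b4: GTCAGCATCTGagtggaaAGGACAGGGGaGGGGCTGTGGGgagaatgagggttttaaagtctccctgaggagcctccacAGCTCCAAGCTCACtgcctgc
Klk1b5: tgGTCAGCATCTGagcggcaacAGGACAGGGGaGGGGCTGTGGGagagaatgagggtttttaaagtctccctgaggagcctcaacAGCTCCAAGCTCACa
None of the 9 genes of the family held either element in a promoter window.

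MHC class I and peptide loading genes, a group that IRF1 is known to drive, had a positive median response in B6 mice and a median near 0 in mutants, with either control set. Of the 24 genes tested, 3 were upregulated in B6 mice, where 0.777% of all genes were, and none was called in mutants, where 0.0561% were. With set 2 the number called in B6 mice was 2, where 3.52% of all genes were. After the GC correction it was 0, where 0.105% of all genes were, and the median B6 response of the list was 0.30. H2-K1, a classical class I heavy chain, was at 679.5, 675 and 654 CPM in control set 1, and at 863, 1252 and 1084 CPM in treated B6 mice. It was at 537, 634 and 576 CPM in untreated and 581, 571 and 487 CPM in treated mutants. Treated B6 mice were above all other libraries, control set 2 included (711, 693 and 700.4 CPM), and the mutant groups overlapped. The gene was upregulated in B6 mice by 0.68 log2 (edgeR adjusted p = 0.00475), against -0.10 (95% interval -0.36 to 0.17) in mutants. The interaction was -0.78 (95% interval -1.15 to -0.41, edgeR adjusted p = 0.0814) and -0.70 with set 2 (adjusted p = 0.15), which misses the threshold in both.

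H2-T23, a nonclassical class I chain that presents signal peptides to natural killer cells, was at 279.6, 271 and 256 CPM in control set 1, 347, 348 and 349 CPM in treated B6 mice, 227, 247 and 239 CPM in untreated mutants and 203, 239 and 211 CPM in treated ones. Again treated B6 mice stood above all others, control set 2 included (285, 262 and 256 CPM). Its interaction was -0.51 with set 1 (edgeR adjusted p = 0.0765) and -0.51 with set 2 (adjusted p = 0.136). H2-D1 gave -0.68 and -0.46 and H2-Q10 -1.05 and -0.64. The H2 genes have near-identical copies, so their counts may mix members.

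Psmb10, a catalytic subunit of the immunoproteasome, was at 62.7, 65.7 and 60.6 CPM in control set 1, and at 75.0, 92.7 and 93.9 in treated B6 mice, and at 17.5, 20.8 and 19.8 CPM in untreated and 15.9, 19.8 and 18.6 in treated mutants. Mutants were far below B6 mice before treatment and overlapped between treatments. The interaction of Psmb10 was -0.58 (edgeR adjusted p = 0.107), and -0.66 with set 2 (adjusted p = 0.136). Tapbp, which bridges class I chains to the peptide transporter, gave -0.29 and -0.30. In Psmb8 and Tap1, a proteasome subunit and a chain of the peptide transporter named after their values were seen, the treated B6 mouse 1 lay apart from mice 2 and 3 (41.7 against 87.7 and 78.6 CPM for Psmb8, and 33.8 against 84.2 and 70.5 CPM for Tap1). Their interactions were -0.82 (edgeR adjusted p = 0.243) and -0.87 (adjusted p = 0.328).

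Over the 24 genes of the MHC class I list, 21 had a negative interaction, where 48.1% of all genes did, 13 of them with an unadjusted p under 0.05 by edgeR (7.23% of all genes), and none had a positive one at that limit. The median was -0.35 with control set 1 and -0.47 with set 2, and -0.31 after the GC correction. With each mouse left out the median lay between -0.51 and -0.29. The median response in B6 mice was 0.41 against set 1 and 0.40 against set 2, and in mutants it was -0.08. The summed level ran from 3715 to 3838 CPM in control set 1, 4115 to 5511 in treated B6 mice, 3252 to 3645 in untreated and 3188 to 3676 in treated mutants, and 3820 to 4145 in control set 2. In the treated B6 group mouse 1 had the lowest sum, within the range of control set 2.

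MHC class II genes, expressed by antigen presenting cells and by the inflamed epithelium, had a median interaction of -0.45 over 11 genes with set 1 and -0.77 with set 2. With set 1 10 of 11 were negative and none had an unadjusted p under 0.05 by edgeR, and with set 2, where 49.2% of all genes were negative, all 11 were, 3 at that limit. H2-Ab1, a class II beta chain, was at 120.3, 121 and 74.8 CPM in control set 1, 122, 299 and 199 CPM in treated B6 mice, 89.3, 117 and 105 CPM in untreated mutants and 136, 133 and 113 CPM in treated ones. The treated B6 mouse 1 was at the level of controls. The interaction of H2-Ab1 was -0.69 (edgeR adjusted p = 0.358), and ranged from -0.96 to -0.32 as single mice were left out. The median of the class II list was -0.72 without the treated B6 mouse 1 and -0.13 without mouse 2.

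Interferon-inducible antiviral genes had a negative interaction in 31 of 43 genes with set 1 (48.1% of all genes) and in 35 of 42 with set 2 (49.2%), with medians of -0.19 and -0.25. At an unadjusted p under 0.05 by edgeR 8 were negative and 1 positive with set 1, beside 7.23% and 9.65% of all genes. Oas3, a sensor of double-stranded RNA, was at 31.5, 23.1 and 29.8 CPM in control set 1 and 32.7, 41.1 and 36.6 CPM after treatment of B6 mice, and at 29.9, 32.0 and 29.5 in untreated mutants and 24.9, 30.2 and 26.8 in treated ones. B6 libraries separated by a small gap and mutant libraries overlapped. The interaction of Oas3 was -0.56 (edgeR adjusted p = 0.146) and -0.46 with set 2. For the interferon-inducible GTPases, which attack the vacuoles of intracellular pathogens, the median over 10 genes was -0.26 and -0.25 with the control sets, and 0.10 without the treated B6 mouse 2. Gbp2 was at 38.4, 41.9 and 41.9 CPM in control set 1, and at 43.2, 130.4 and 100.4 in treated B6 mice, and at 8.88, 7.28 and 7.36 CPM in untreated and 9.76, 9.13 and 9.64 in treated mutants. Mutants were low in all 6 libraries, and the rise in B6 mice was large in mice 2 and 3 and small in mouse 1. The interaction of Gbp2, whose reads may be shared with other Gbp copies, was -0.90 with either control set (edgeR adjusted p = 0.293 with set 1).

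Counted over genes with a promoter window, the interferon regulatory factor element was present in 7 of 7 GTPase and 13 of 31 antiviral genes. It was in 4 of 18 class I and 1 of 8 class II genes, beside 3.99% of 27025 genes. None of the 14 clock, 11 skeletal muscle or 9 kallikrein genes held it. The 80 bases around the match are printed for genes whose values are given here, with the match on either strand in capitals. On GRCm38.p6 they lie at chr17:36032781-36032860 (minus strand) for H2-T23, chr5:120777690-120777769 (minus) for Oas3, chr3:142620569-142620648 (plus) for Gbp2 and chr11:58214878-58214957 (plus) for Irgm2.
H2-T23: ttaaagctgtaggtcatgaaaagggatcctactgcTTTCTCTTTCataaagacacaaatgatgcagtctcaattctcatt
Oas3: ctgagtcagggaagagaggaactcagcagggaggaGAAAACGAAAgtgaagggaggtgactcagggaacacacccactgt
Gbp2: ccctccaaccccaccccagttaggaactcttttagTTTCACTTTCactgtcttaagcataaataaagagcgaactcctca
Irgm2: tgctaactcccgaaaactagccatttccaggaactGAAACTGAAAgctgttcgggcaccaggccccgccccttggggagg
A match describes letters and not binding. Irgm2, a regulator of these GTPases, had an interaction of -0.41 (edgeR adjusted p = 0.314).

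Skeletal muscle genes had the most negative median of the lists described, -1.40 over 14 genes with set 1. All 14 were negative, 11 with an unadjusted p under 0.05 by edgeR, beside 48.1% and 7.23% of all genes. Ckm, the muscle creatine kinase, was at 26.0, 27.3 and 26.6 CPM in control set 1, 40.5, 46.4 and 40.1 in treated B6 mice, 27.3, 31.3 and 29.2 in untreated mutants and 25.2, 16.3 and 26.7 in treated ones. Treated B6 mice were above all of set 1 and treated mutants below all untreated ones. Myom2, a protein of the sarcomere M-band, was at 5.75, 3.44 and 5.09 CPM in control set 1, 6.67, 8.08 and 8.38 in treated B6 mice, 5.10, 6.66 and 5.54 in untreated and 3.79, 1.74 and 2.27 in treated mutants, again without overlap. With control set 2 Ckm went from -1.05 to -0.69, Myom2 from -1.86 to -1.15, and Pygm, the muscle glycogen phosphorylase, from -0.74 to -0.56. Actn2 and Mettl21e went from -1.37 to -0.36 and from -1.07 to -0.38.

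With set 2 all 14 muscle genes stayed negative and 4 had an unadjusted p under 0.05 (5.95% of all genes), with a median of -0.74. The median response in B6 mice was 0.62 against set 1 and -0.16 against set 2, so the opposite directions were again seen with set 1 and not with set 2, and it was -0.88 in mutants. Striated muscle is not part of the colon wall. The summed level of the list was 421 to 858 CPM in control set 1, 629 to 1163 in treated B6 mice, 762 to 1026 in untreated mutants, 391 to 541 in treated mutants and 910 to 1139 in control set 2, and no library was without these genes. Whether the colons were cut with different amounts of adjacent muscle was not tested.

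Goblet cell genes, which encode the mucins and secreted proteins of the mucus layer, had a median interaction of -0.43 over 24 genes with set 1 and -0.12 with set 2. Muc2, the main secreted mucin of the colon, was at 1837, 991 and 1734 CPM in control set 1, and at 2666, 6899.9 and 4838 in treated B6 mice, and at 3804, 3614 and 3767 CPM in untreated and 4359, 4662 and 4277 in treated mutants. Control set 1 was the lowest group, and control set 2 stood at 2459, 2080.0 and 2678 CPM. Muc2 was upregulated in B6 mice by 1.67 log2 (edgeR adjusted p = 0.00352), against 0.24 in mutants, an interaction of -1.43 (adjusted p = 0.112) that was -0.75 with set 2 (adjusted p = 0.32). Ang4, a goblet and Paneth cell antimicrobial ribonuclease, was at 17.2, 3.27 and 4.02 CPM in control set 1, 53.6, 342 and 132 in treated B6 mice, 56.7, 82.1 and 69.7 in untreated mutants and 75.0, 147 and 49.4 in treated ones. It spread from 21.1 to 231 CPM in control set 2. Its interaction of -4.07, the most negative of the genes named here, was -0.24 with set 2 (edgeR adjusted p = 0.939). Over the 19 mucosal antimicrobial and oxidase genes the median was -0.17 and -0.15 with the control sets.

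Core circadian clock genes had the most positive median of the lists described, 0.57 over 18 genes with set 1, and 8 were positive and 2 negative with an unadjusted p under 0.05 by edgeR, beside 9.65% and 7.23% of all genes. With set 2 these counts were 1 and 1. Per3, a repressor of the clock loop, was at 84.2, 119 and 96.9 CPM in control set 1, 50.2, 33.1 and 70.8 in treated B6 mice, 55.9, 72.2 and 85.1 in untreated mutants and 64.9, 102 and 101 in treated ones. Control set 2, at 38.3, 37.0 and 48.0 CPM, was within the range of treated B6 mice. The interaction of Per3 was 1.28 with set 1 and 0.01 with set 2, and that of Nr1d2, a nuclear receptor that represses the clock activators, was 1.17 and 0.36. The activator Arntl and the output gene Dbp, named after their values were seen, gave -1.34 and 2.05 with set 1 and -0.30 and -0.56 with set 2. The median of the list with set 2 was -0.06. The hour at which the mice were sacrificed is not given in the labels, and its part was not tested.

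The medians of 4 immune and neural lists were lower with control set 2. B cell and plasma cell genes went from 0.23 over 14 genes to -0.27, macrophage and dendritic cell genes from 0.20 over 36 to -0.07, enteric neuron and glia genes from 0.29 over 17 to -0.12, and cytokines, chemokines and receptors from 0.19 over 30 to 0.01. Collagen and matrix genes went the other way, from 0.08 over 43 to 0.14, with 35 of the 43 above 0 with set 2. Mrc1, the macrophage mannose receptor, was at 91.4, 90.0 and 86.9 CPM in control set 1, 83.2, 84.9 and 75.7 in treated B6 mice, 59.6, 60.6 and 74.9 in untreated and 77.8, 83.3 and 92.2 in treated mutants. Untreated mutants were the lowest of these groups, and the interaction of Mrc1 was 0.50 with set 1 (edgeR adjusted p = 0.112) and 0.33 with set 2 (adjusted p = 0.286).

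Complement genes had a median response of 0.23 log2 in B6 mice and 0.54 in mutants. With set 1, 17 of 18 had an interaction above 0, against 51.9% of all genes. C3, the central component, was at 177, 151 and 154 CPM in control set 1 and 246, 343 and 243 in treated B6 mice, and at 169, 207 and 156 CPM in untreated and 361, 349 and 279 in treated mutants. Treated libraries were above untreated ones in both genotypes. C3 was upregulated by 0.80 log2 in B6 mice (edgeR adjusted p = 0.00562), with 0.89 in mutants (adjusted p = 0.017), and the interaction of 0.09 had a 95% interval of -0.37 to 0.54. C4b gave 0.35 (-0.12 to 0.82). With set 2, where 50.8% of all genes were above 0, 8 of 17 complement genes were, and the median went from 0.17 to -0.02.

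**Figure D4:**
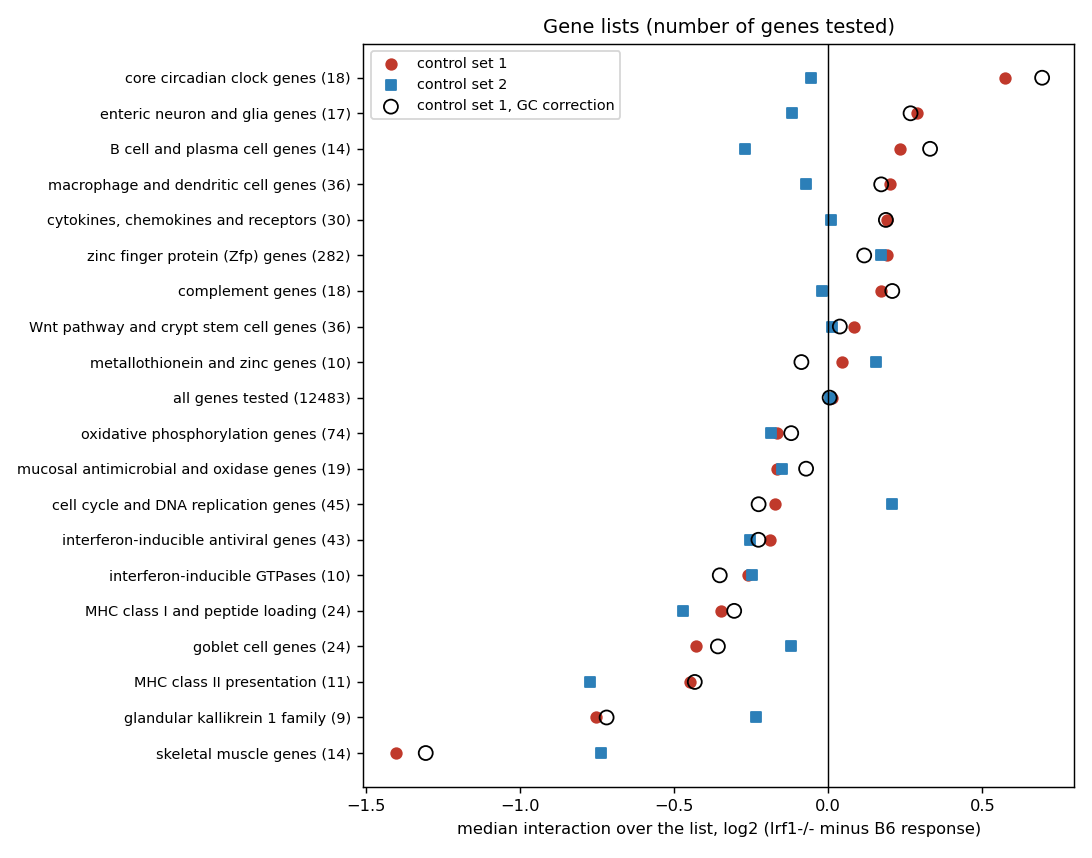
Median interaction (log2, x axis) over each of 19 gene lists and over all genes, with control set 1 (red circles), control set 2 (blue squares) and control set 1 after the GC correction (open circles), and the number of genes tested in parentheses. MHC, muscle, kallikrein, antiviral, GTPase, goblet cell, mucosal antimicrobial and oxidative phosphorylation lists are below 0 in all 3, and the clock list goes from 0.57 to -0.06 between the control sets.

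In the plot of list medians, 13 of the 19 lists kept the sign of the median with control set 2 and 6 did not. Cell cycle and DNA replication genes were among the latter, with a median of -0.17 over 45 genes with set 1 and 0.21 with set 2. E2f1, a factor of S-phase entry, was at 6.55, 6.80 and 8.63 CPM in control set 1, 6.89, 7.55 and 6.32 in treated B6 mice, 12.8, 10.1 and 12.1 in untreated and 8.78, 6.81 and 6.58 in treated mutants. Control set 2 was at 13.1, 11.96 and 11.2 CPM, as untreated mutants were, and the interaction of E2f1 went from -0.60 to 0.14. Usf1, a helix-loop-helix factor of metabolism and stress, was at 42.2, 44.6 and 37.1 CPM in control set 1, 52.0, 47.7 and 50.1 in treated B6 mice, 35.6, 35.7 and 35.6 in untreated and 30.4, 35.2 and 34.1 in treated mutants. Treated B6 mice were the highest group, control set 2 included (42.5, 41.3 and 41.2 CPM), and the interaction of Usf1 was -0.39 (edgeR adjusted p = 0.135) and -0.36 with set 2 (adjusted p = 0.18). Dact2, an inhibitor of Wnt and TGF-beta signalling, gave -0.47 (edgeR adjusted p = 0.219) and -0.61 with set 2 (adjusted p = 0.161).

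Over the 36 Wnt pathway and crypt stem cell genes the median was 0.08 and 0.01 with the control sets. Wnt5a, a ligand of the noncanonical branch that stromal cells make, was at 18.4, 19.3 and 20.2 CPM in control set 1, 11.8, 12.95 and 13.1 in treated B6 mice, 15.6, 17.1 and 17.1 in untreated and 17.9, 14.6 and 20.3 in treated mutants. Treated B6 mice were below all others, and the interaction of Wnt5a was 0.68 (edgeR adjusted p = 0.0921) and 0.47 with set 2 (adjusted p = 0.242). Metallothionein and zinc genes had a median of 0.05 over 10 genes, 0.15 with set 2 and -0.09 after the GC correction. The mast cell proteases Mcpt1 and Mcpt2 were not among the genes tested here.

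Oxidative phosphorylation genes, which build the respiratory chain, had a small negative median interaction with either control set. Of 74 genes 63 had a negative interaction, 25 with an unadjusted p under 0.05 by edgeR, beside 48.1% and 7.23% of all genes. With set 2 the counts were 65 and 22, beside 49.2% and 5.95%. The median was -0.17 with set 1, -0.19 with set 2 and -0.12 after the GC correction. The median response was 0.01 in B6 mice and -0.17 in mutants. Ndufa2, a subunit of complex I, was at 41.4, 43.4 and 46.0 CPM in control set 1, 49.8, 52.0 and 48.8 in treated B6 mice, 52.3, 51.8 and 52.4 in untreated and 44.7, 41.7 and 42.6 in treated mutants. The groups did not overlap in either genotype and moved in opposite directions. Its interaction was -0.50 (edgeR adjusted p = 0.0681) and -0.36 with set 2, where control mice stood at 45.3, 47.8 and 49.4 CPM.

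Zinc finger protein (Zfp) genes, a large family of mostly repressive DNA-binding proteins, had a positive interaction in 209 of 282 genes, 89 with an unadjusted p under 0.05 by edgeR, beside 51.9% and 9.65% of all genes. The median was 0.19, and 0.17 with set 2. In B6 mice 39 of the 282 were downregulated and none was upregulated, beside 1.23% and 0.777% of all genes, and the median response was -0.23 there and -0.03 in mutants. These genes have a median GC content of 44.4%, below the 49.6% of all genes, and the GC slope of treated B6 libraries moves with this result. After the GC correction 0 of the 282 were called in B6 mice, where 13 of all genes (0.105%) were, and the median interaction was 0.12. Zfp60 was at 24.3, 23.4 and 26.9 CPM in control set 1, 15.8, 16.5 and 14.96 in treated B6 mice, 21.5, 21.8 and 21.3 in untreated and 21.0, 21.1 and 20.9 in treated mutants. Treated B6 mice alone were low, and the interaction of 0.60 was 0.36 after the GC correction and 0.17 with set 2 and the correction together.

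**Figure D5:**
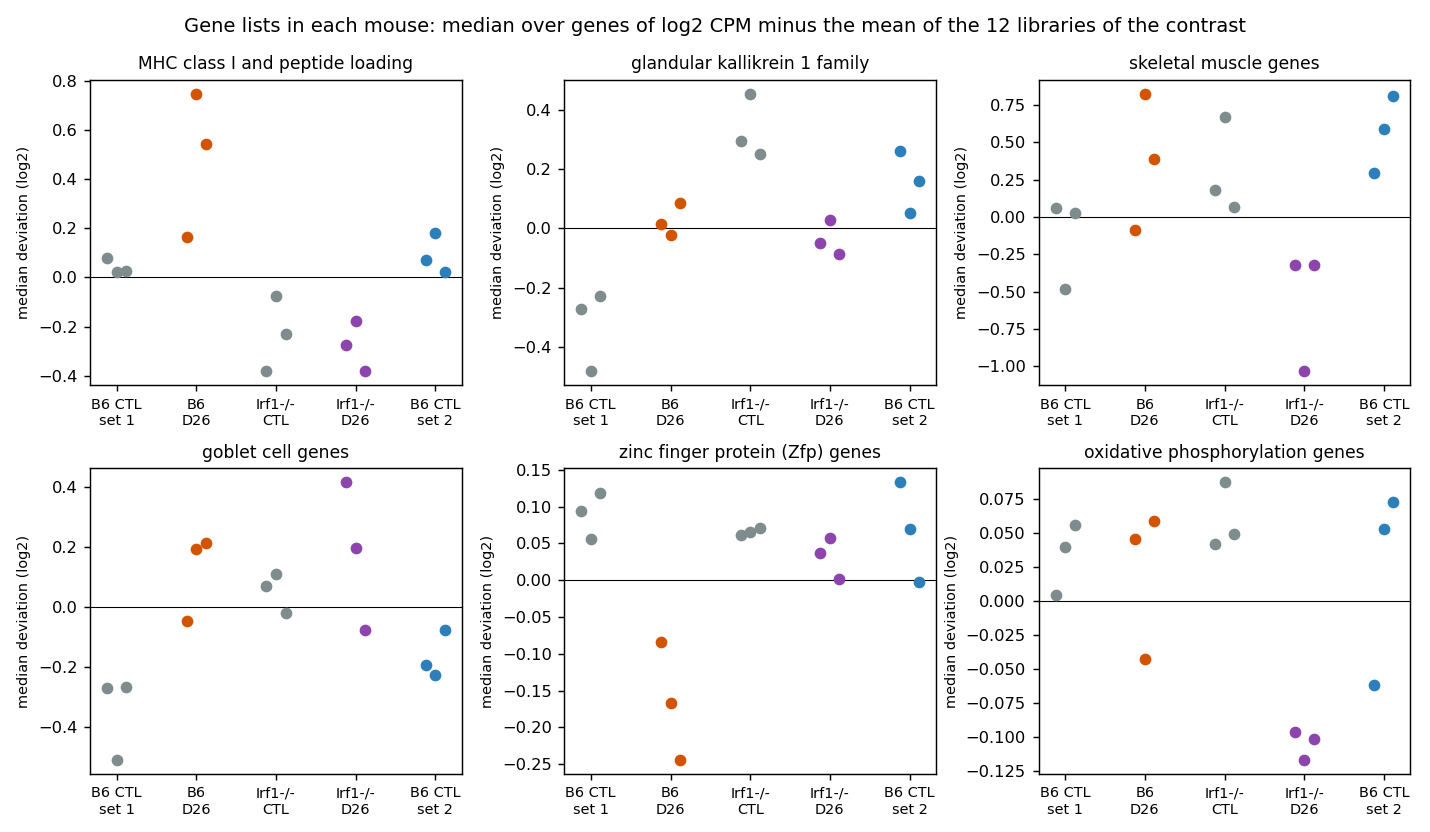
Median over the genes of 6 lists of log2 CPM minus the mean of the 12 libraries of the contrast, in each mouse (points) of the 5 groups. Treated B6 mice 2 and 3 are above all other mice for MHC class I genes and all treated B6 mice below all others for Zfp genes, treated mutants are below all others for oxidative phosphorylation genes, and control set 1 is below all others for kallikrein and goblet cell genes.

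The plot of list medians in each mouse sets these patterns side by side. In the MHC class I panel the treated B6 mice 2 and 3 stood clear of all other mice and mouse 1 overlapped with control set 2. In the kallikrein and goblet panels control set 1 stood below all other groups, and in the Zfp panel treated B6 mice did.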

How the data were processed

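The authors deposited read counts per gene in 3 tables, without normalization, from 50 bp paired reads of rRNA-depleted stranded libraries. Per the submitters' processing notes, TopHat2 2.0.9, Bowtie 1.0.0, featureCounts and edgeR were used with the mm9 build, and no coordinates of that build are given. The log2 fold changes, p-values, adjusted p-values and CPM deposited by the authors were not used. Untreated and treated B6 mice come from 1 table and the mutants from another.

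Counts of the 12 libraries were joined on gene symbol, scaled with TMM and fitted in edgeR 4.0.16 (quasi-likelihood, R 4.3.3) with 4 group means, leaving 8 residual degrees of freedom. The median SE was 0.151 log2 for the interaction and 0.107 for each response. Replicate numbers were not used as pairs (see the closing section for the block). Genes named were the 12 with the smallest interaction p in each direction at a ratio of at least 1.5, up to 2 per gene list described, Irf1, and genes the study discusses. Ltf, Aldh1a3, Ifitm3, Trim43b, Arntl, Dbp, Psmb8 and Tap1 were added after their values were seen, as were genes named from counts of calls. Members and lists were chosen with earlier results of these data known, and gene lists are described by counts and medians without a test. T cell, neutrophil and mast cell lists held 3, 7 and 3 tested genes, with median interactions of -0.10, -0.01 and -0.10.

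Alternatives were control set 2 or both sets, all 15 libraries, RLE size factors, DESeq2 1.42.0, edgeR's likelihood ratio test, limma 3.58.1 voom, a filter of 10 CPM in 3 libraries, an adjusted p under 0.05, log2 Xist as a covariate, the replicate block, each mouse left out, and lowess curves on GC content (span 0.3, GENCODE M21). Set 2 with the GC correction was added after seeing the data. Promoters came from RefSeq (GRCm38.p6). Scripts were tested on simulated data. Some genes are not reported here. Python 3.11.15, numpy 2.4.6, pandas 2.3.3 and matplotlib 3.10.9 were used.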

Additional observations from a re-analysis of the deposited data

Results flagged for a closer look

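The interaction test separated the responses of the genotypes in 2 genes. Akap5 had an interaction of 1.83 log2 and Lrrc17 of 1.60 with control set 1 (edgeR adjusted p of 0.000675 and 0.00611), with 3 of 3 treated mutants above all untreated mutants and 3 of 3 treated B6 mice below all of control set 1. With control set 2 these values were 0.20 and 0.26. Control set 1 was the group with the highest mean level of both genes, with no overlap with control set 2. The causes of this difference between the untreated B6 sets were not tested.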

How the results depend on the processing

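The interaction gave 2 higher and 0 lower calls with RLE size factors, limma voom, the 10 CPM filter, the GC correction, the Xist covariate, and the replicate block with or without the GC correction. There were 0 higher calls with control set 2, with both sets together, and with set 2 and the GC correction, and the pattern of mutants alone was then 0 as well. Higher and lower calls were 49 and 26 with DESeq2, 52 and 23 with the likelihood ratio test, 2 and 1 with all 15 libraries, and 3 and 3 at an adjusted p under 0.05. Genes changed in B6 mice alone, in mutants alone and in opposite directions were 41, 8 and 5 with DESeq2, 44, 7 and 4 with the likelihood ratio test, and 1, 2 and 1 at an adjusted p under 0.05, and all 15 libraries gave 1 in opposite directions. With each mouse left out, higher calls were 1 to 9, lower calls 0 to 0, and the 3 patterns 0 to 6, 0 to 2 and 0 to 2.

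Upregulated and downregulated genes in B6 mice, 97 and 154, were 175 and 260 with set 2, 146 and 209 with both sets, 215 and 230 with DESeq2, 222 and 238 with the likelihood ratio test, 253 and 260 at an adjusted p under 0.05, 7 and 6 with the GC correction, 0 and 0 with the block and the GC correction, 27 and 115 with the Xist covariate, 51 and 57 with set 2 and the GC correction, and 6 to 178 and 20 to 233 with a mouse left out. Those in mutants, 5 and 2, were 8 and 1 with set 2, 3 and 0 with both sets, 21 and 7 with all 15 libraries, 111 and 37 with DESeq2, 109 and 35 with the likelihood ratio test, 79 and 29 at an adjusted p under 0.05, 10 and 2 with the replicate block, 9 and 4 with set 2 and the GC correction, 0 lower with the Xist covariate, and 0 to 36 and 0 to 5 with a mouse left out. The causes were not tested.

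Of 18 same-numbered pairs of libraries 4 had deviations correlated above 0.1 (range -0.24 to 0.25), so the numbers were not taken as pairing, and the replicate block left the interaction at 2 and 0 calls with 73 and 117 in B6 mice.

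Signs turned in these named genes. With control set 2 they were Pou2af1 (-0.34), Ms4a1 (-0.23), E2f1 (0.14), C3 (-0.15), Dbp (-0.56) and Trim43b (0.10). Leaving out Ltf, Aldh1a3, Ifitm3 and Trim43b, with set 2 and the GC correction they were Noxa1 (0.012), Pou2af1 (-0.35), Ms4a1 (-0.51), Cd53 (-0.19), Il1rn (-0.042), E2f1 (0.30), C3 (-0.059) and Dbp (-0.36). C3 was also -0.028 with both sets, -0.0049 without the treated B6 mouse 3 and -0.0098 without the untreated mutant 3, within a range of -0.0098 to 0.28 as single mice were left out. At 3 mice per group, differences well under the 95% intervals given were not detectable.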
